A study of Mus musculus with 7 samples.

Results

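The genes described here are those of the receptor family built on the common gamma chain: Il2rg, which encodes that chain, and Il2rb, Il2ra, Il15ra, Il7r, Il4ra, Il21r and Il9r, which encode the chains that pair with it. They were taken by name, and all 8 were found among the 53656 gene rows of each count file. The libraries are messenger RNA of OT1 cells, CD8 T cells with a transgenic receptor for an ovalbumin peptide, sorted by CD8 and CD45.1 from mouse B16-OVA-GP61 melanomas, which express ovalbumin and the GP61 epitope. In 4 libraries no SMARTA cells were present, and in 3 libraries SMARTA cells were, CD4 T cells whose transgenic receptor recognises GP61. Both groups share the OT1 cells and the tumour line, and the host strain, its own remaining T cells, the ages and the times of transfer are not given in the sources used here. Nothing in the labels ties a library to its own animal, so p-values describe the spread between these 7 samples, and that spread may be technical.

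The common gamma chain is a subunit of the receptors for interleukins 2, 4, 7, 9, 15 and 21, and it signals through the kinase JAK3 while the partner chains mostly use JAK1. Interleukins 2, 7 and 15 act mainly through the transcription factor STAT5, interleukin 4 through STAT6 and interleukin 21 through STAT3. In CD8 T cells interleukin 7 supports the survival of naive and memory cells, interleukin 2 drives expansion and effector differentiation, and interleukin 15 maintains memory cells. The gene Il7r is typically high in naive and memory cells and is turned down on activation, while Il2ra is induced by antigen receptor signalling.

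With SMARTA cells, OT1 cells held 3.90-fold more transcript of Il4ra, the chain that binds interleukin 4, and this was the member that passed the test over all genes. Il7r and the common chain gene Il2rg were also higher in each of the 3 libraries with SMARTA than in any of the 4 without, by 4.79-fold and 1.53-fold, but did not pass. Il2rb, Il2ra, Il15ra and Il21r overlapped between the groups, and Il9r had 0 to 122 counts in a library. A gene was called when its adjusted p was under 0.05 (edgeR quasi-likelihood test with Benjamini-Hochberg adjustment), and 1 of 8 members was called, beside 3.15% of the 15896 genes tested; it was higher, as were 1.52% of all genes, and 0 members were lower, as were 1.63%. At an unadjusted edgeR p under 0.05 there were 3 members, beside 18.6% of all genes, and DESeq2 called 3 members, beside 9.98%, and limma-voom 2, beside 3.33%. The libraries did not overlap, with those with SMARTA higher, for 3 of 8 members, beside 8.73% of all genes, and lower for 0, beside 10.5%. The members' median log2 fold change was 0.27, beside −0.00338 for all genes tested.

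The sequences before the transcription starts of the 3 genes whose libraries did not overlap are shown because these are the members that were higher together. They are RefSeq sequences of the build GRCm38.p6, cut to the bases before the RefSeq start that lie outside every exon counted for the gene. The stretch of Il7r lies inside the span counted for that gene, which reaches 9530176. That of Il4ra ends 152 bases before its RefSeq start. Capitals mark matches, on either strand, to a STAT5-type site (TTCNNNGAA) or an ETS core (CNGGAAG).
Il4ra, chr7:125552021-125552119, plus strand: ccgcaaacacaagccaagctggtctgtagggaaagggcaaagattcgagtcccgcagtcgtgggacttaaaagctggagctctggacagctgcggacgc
Il7r, chr15:9529877-9530040, minus strand: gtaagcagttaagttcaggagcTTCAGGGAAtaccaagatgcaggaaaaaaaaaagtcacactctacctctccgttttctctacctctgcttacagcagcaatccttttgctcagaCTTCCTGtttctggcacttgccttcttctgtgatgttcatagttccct
Il2rg, chrX:101268256-101268505, minus strand: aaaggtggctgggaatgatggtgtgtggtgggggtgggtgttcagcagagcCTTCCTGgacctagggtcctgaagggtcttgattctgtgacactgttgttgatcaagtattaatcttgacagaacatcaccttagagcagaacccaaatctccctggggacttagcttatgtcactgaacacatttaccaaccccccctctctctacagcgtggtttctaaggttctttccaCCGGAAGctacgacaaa

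Windows of 300 bases, 250 before and 50 after a RefSeq start, were found for 7 of the 8 members, all but Il2rb, in 8 windows, and 4 motifs were searched in them on both strands. Il7r held a STAT5-type match 142 bases before its start, and no other member did, while 8.3% of all 32851 windows held one. The ETS core stood 48 bases before the start of Il7r, 17 and 199 bases before that of Il2rg, and in a window of Il15ra, and 31.9% of all windows held it. A STAT6-type match (TTCNNNNGAA) stood in no member's window, beside 6.95% of all windows. The FOXO core (GTAAACA) stood in that of Il21r, beside 3.65% of all windows. No match of one motif overlapped another in the stretches shown. The motifs were chosen with these sequences in view, and a match is a description of the letters only.

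Libraries held 38092722 to 49438357 counts, and levels are given in CPM, a gene's count relative to the scaled library total. A gene with no count lay under 0.0607 to 0.0788 CPM of the library total before scaling, where 3 counts fall. This limit covers counting error only. The defining T cell markers Cd3e and Cd8a were at 1143 to 1736 and 980.5 to 2029.6 CPM of the library total, while Cd4 was at 0.659 to 8.09 CPM. The 8 CD8 T cell markers summed to 8233 to 9851 CPM without and 9364 to 10938 CPM with SMARTA. Among them Cd8b1 was at 1347 to 1927 CPM without and 1949 to 2358 CPM with SMARTA. Cd2 was at 836 to 1085 and 1188 to 1590 CPM, and both were higher in every library with SMARTA. The remaining CD8 T cell markers overlapped between the groups. The 6 CD4 T cell markers, all detected, summed to 310.3 to 577 CPM without and 307 to 850.1 CPM with SMARTA, mostly Ctla4, which activated CD8 T cells also express. Within that list Cd40lg was at 26.2 to 68.1 CPM without and 88.1 to 101 CPM with SMARTA. Zbtb7b was at 7.96 to 22.7 and 23.1 to 43.3 CPM, and both were higher in every library with SMARTA. The rest of the list overlapped between the groups. Ikzf2 was at 8.01 to 55.6 CPM without and 0.425 to 15.2 CPM with SMARTA, and Foxp3 at 0.638 to 12.0 and 0 to 1.84 CPM. Cd4 was at 0.659 to 7.31 and 2.05 to 8.09 CPM, and Ctla4 at 219 to 438 and 167 to 707 CPM. The part of CD4 T cell transcripts in the results was not tested. Replicate 1 with SMARTA stood apart by its red cell transcripts: the 7 erythroid markers summed to 4829 CPM there and to 9.72 to 223 CPM in the other libraries. Melanoma markers summed to 68.4 CPM in replicate 2 without SMARTA and to 6.7 to 16.9 CPM in the other libraries. Neutrophil markers summed to 62.3 and 32.7 CPM in replicates 1 and 2 without SMARTA and to 0.843 to 4.77 CPM in the others. The summed B cell markers (8 of 8 detected) were at 337 to 575 CPM without and 289 to 657 CPM with SMARTA, mostly Ighm. The summed macrophage and monocyte markers (10 of 10 detected) were at 83.0 to 184 CPM without SMARTA, and at 198, 33.7 and 36.4 CPM in replicates 1, 2 and 3 with SMARTA. Dendritic cell markers summed to 60.6 to 224 and 146 to 435 CPM, mostly Itgax. NK cell markers summed to 1197 to 1756 and 957 to 2039 CPM, mostly Klrk1. CD8 T cells express both Itgax and Klrk1. Within the NK cell list Klre1 was at 68.6 to 186 CPM without and 13.2 to 35.4 CPM with SMARTA, lower in every library with SMARTA. The rest of the NK cell list overlapped between the groups. In bulk samples such as these, fewer cells of a type and less RNA per cell cannot be told apart.

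Il4ra lies on chromosome 7 from 125552120 to 125579474 (GRCm38). Its level was 98.7, 155, 132 and 147 CPM in replicates 1 to 4 without SMARTA and 606, 474 and 475 CPM in replicates 1 to 3 with SMARTA. Every library with SMARTA was far above every library without, and the gap between the groups exceeded the spread within each. The mean rose from 133 ± 24.8 (SD, n = 4) to 518 ± 75.8 CPM (SD, n = 3), a log2 fold change of 1.96 ± 0.21 (SE; edgeR adjusted p = 0.0109). Its p was rank 9 among the 15896 genes tested. Il4ra was called in each of the 7 fits that left out 1 library, with log2 fold changes from 1.80 to 2.04 and edgeR adjusted p from 0.00603 to 0.0486.

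B cells, macrophages and CD4 T cells also express Il4ra, and the library with the highest Il4ra, replicate 1 with SMARTA, had the highest B cell and macrophage sums. Replicates 2 and 3 with SMARTA, at 474 and 475 CPM of Il4ra, had lower macrophage sums than any library without SMARTA. The part of other cells in the level of Il4ra was not tested. Without replicate 1 with SMARTA the log2 fold change of Il4ra was 1.82 (edgeR adjusted p = 0.00603). The exons of Il4ra share 571 bases with those of a gene model named RP23-136A14.3, which had 19 counts over all libraries; reads in shared bases are left out by the counting.

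Il7r, which encodes the interleukin 7 receptor alpha chain, lies on chromosome 15 from 9505788 to 9530176. It was at 118, 270.2, 70.9 and 86.6 CPM without SMARTA and at 335, 573 and 1053 CPM with SMARTA. The groups did not overlap, but replicate 2 without SMARTA came within a short distance of replicate 1 with SMARTA, and both groups were widely spread. The means were 136 ± 91.4 (SD, n = 4) and 654 ± 366 CPM (SD, n = 3), and the log2 fold change of 2.26 ± 0.53 (SE) did not pass (edgeR adjusted p = 0.0578). Il7r passed when replicate 2 without SMARTA was left out (log2 fold change 2.83, edgeR adjusted p = 0.0305) or replicate 1 with SMARTA (2.54 and 0.0331), and in no other of the 7 fits that left out 1 library, where the adjusted p reached 0.192. It also passed by limma-voom (adjusted p = 0.042) and DESeq2 (adjusted p = 0.000882).

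Il2rg, on chromosome X from 101264378 to 101268255, varied least for its level among the libraries without SMARTA. Its exons share 185 bases with a gene model named RP23-440J15.6, which had 3 counts in all. Its level was 1091, 989, 1062 and 1095 CPM without SMARTA and 1467, 1503 and 1900.2 CPM with SMARTA. Every library with SMARTA was higher, and replicate 3 stood highest. The means were 1059 ± 48.9 (SD, n = 4) and 1623 ± 241 CPM (SD, n = 3), a log2 fold change of 0.62 ± 0.16 (SE) that did not pass (edgeR adjusted p = 0.0724). It passed without replicate 1 with SMARTA (edgeR adjusted p = 0.0444) and by DESeq2 (adjusted p = 0.0141), but not by limma-voom (adjusted p = 0.0599). The log2 fold change was 0.45 with library totals in place of TMM scaling, which sets libraries equal over the bulk of the genes.

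**Figure D1:**
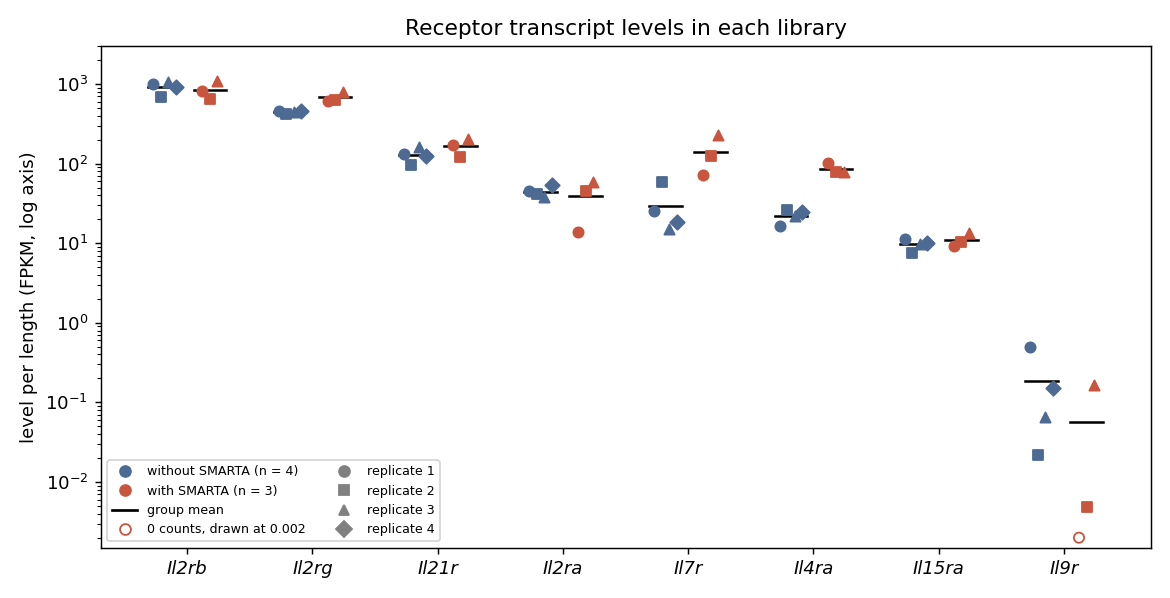
Transcript levels of the 8 receptor genes in FPKM, the CPM per kilobase of exon (log axis), one symbol per library and a line at each group mean (n = 4 and 3). Il4ra, Il7r and Il2rg have all 3 libraries with SMARTA above all 4 without, while the other genes overlap; Il9r had 0 counts in replicate 1 with SMARTA, drawn at the floor of the plot.

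Il2rb encodes the beta chain shared by the receptors for interleukins 2 and 15 and lies on chromosome 15 from 78479256 to 78495271. It was at 4309, 2899, 4523 and 3875 CPM without SMARTA and at 3495, 2746 and 4670.1 CPM with SMARTA. The groups covered the same range, with a log2 fold change of −0.10 ± 0.23 (SE; edgeR adjusted p = 0.867).

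Il2ra encodes the alpha chain that gives the interleukin 2 receptor its high affinity, and lies on chromosome 2 from 11642807 to 11693193. It was at 258, 239.5, 217 and 303 CPM without SMARTA and at 78.3, 258 and 330.2 CPM with SMARTA. Replicate 1 with SMARTA, the library with the red cell transcripts, was the one low value, and the other 2 with SMARTA lay within or above the range without. The log2 fold change was −0.20 ± 0.41 (SE; edgeR adjusted p = 0.857), and 0.19 without that library. Regulatory T cells also carry Il2ra; their factor Foxp3 was at 0.638 to 12.0 CPM without and 0 to 1.84 CPM with SMARTA, and its part in the result was not tested.

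Il15ra encodes the chain that binds interleukin 15 and can present it to neighbouring cells. Its gene starts 12096 bases beyond the end of Il2ra on chromosome 2, from 11705290 to 11734317. It was at 49.5, 33.7, 43.5 and 44.4 CPM without SMARTA and at 40.9, 46.1 and 58.9 CPM with SMARTA. The groups overlapped, with a log2 fold change of 0.18 ± 0.23 (SE; edgeR adjusted p = 0.741).

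Il21r encodes the chain that binds interleukin 21 and begins 23954 bases beyond Il4ra on chromosome 7, from 125603429 to 125633570. It was at 441, 315, 539 and 419 CPM without SMARTA and at 573, 404 and 669 CPM with SMARTA. The groups overlapped, and the log2 fold change of 0.36 ± 0.24 (SE) did not pass (edgeR adjusted p = 0.491). Its neighbour Il4ra had a log2 fold change of 1.96, and the ratio of Il4ra to Il21r per length was 0.124 to 0.273 without SMARTA and 0.394 to 0.649 with SMARTA, with no overlap.

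Il9r, the interleukin 9 receptor chain gene on chromosome 11 from 32187541 to 32200279, was counted 122, 5, 16 and 36 times in the libraries without SMARTA cells, and 0, 1 and 28 times in those with them. These are levels of at most 2.47 CPM, one library in each group held most of the counts, and the groups overlapped (log2 fold change −1.71 ± 1.58, SE; edgeR adjusted p = 0.632). Mast cells also express this gene: of 7 mast cell and basophil markers Mcpt4 and Fcer1a had no count in any library, and the list summed to 12.99 to 49.1 CPM without and 6.78 to 18.1 CPM with SMARTA, mostly Kit except in replicate 1 with SMARTA.

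**Figure D2:**
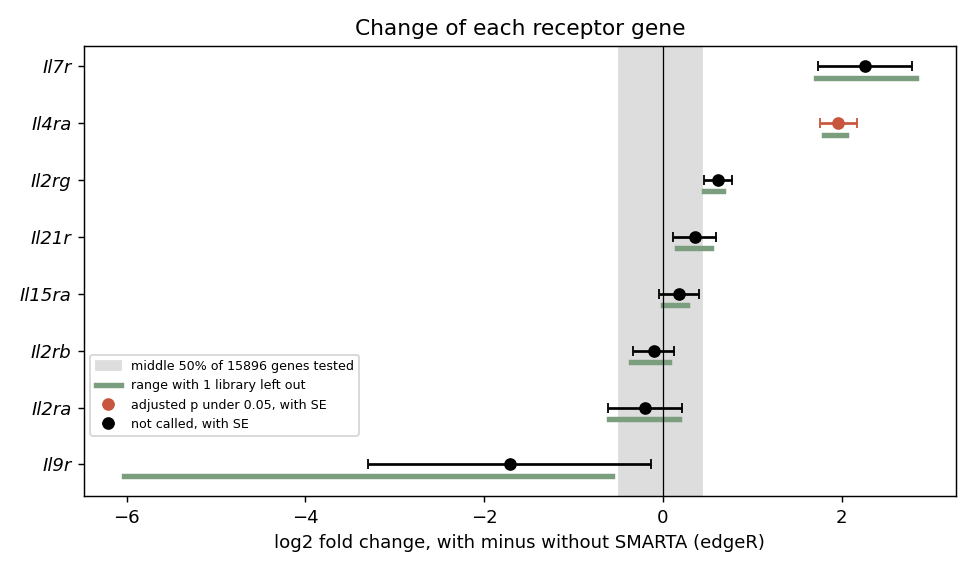
Log2 fold change of each receptor gene, with minus without SMARTA, with its standard error (points and bars) and its range over the 7 fits that leave out 1 library (green bars); the grey band holds the middle 50% of the 15896 genes tested. Il4ra at 1.96 is the called member, Il7r at 2.26 has a wider error, Il2rg at 0.62 lies just outside the band, and Il21r, Il15ra, Il2rb and Il2ra lie inside it.

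Levels per length (FPKM, the CPM divided by the exonic length in kilobases) allow the members to be ordered. Without SMARTA the order of the means was Il2rb (910.04), Il2rg (444), Il21r (129), Il2ra (44.5), Il7r (29.2), Il4ra (22.2), Il15ra (9.63) and Il9r (0.185). Il2ra and Il7r, and Il7r and Il4ra, overlapped as neighbours in that order, and the other neighbours did not. With SMARTA the order was Il2rb (848), Il2rg (680.03), Il21r (165), Il7r (140.1), Il4ra (86.3), Il2ra (38.9), Il15ra (10.9) and Il9r (0.0571). There Il2rb and Il2rg, Il21r and Il7r, and Il7r and Il4ra overlapped as neighbours. Il2ra therefore went from the fourth place to the sixth, below both Il7r and Il4ra, though its own level did not pass the test.

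Ratios within a library do not depend on how libraries are scaled to each other. The ratio of Il4ra to Il2ra per length was 0.364, 0.616, 0.578 and 0.46 without SMARTA and 7.36, 1.75 and 1.37 with SMARTA. Il2ra was thus the higher of the pair in all 4 libraries without SMARTA and Il4ra in all 3 with SMARTA. The ratio of Il2rb to Il7r was 39.8, 11.7, 69.4 and 48.7 without SMARTA and 11.3, 5.22 and 4.83 with SMARTA. The groups did not overlap, but replicate 2 without and replicate 1 with SMARTA almost met. Relative to Il2rg, on the log2 scale, Il2rb was at 1.02 ± 0.23 (SD, n = 4) without and 0.30 ± 0.23 (SD, n = 3) with SMARTA, with no overlap. Il2ra and Il15ra were also lower relative to Il2rg in each library with SMARTA, Il4ra was higher, and Il7r and Il21r overlapped. Il2rg itself was 1.53-fold higher with SMARTA, while Il2rb, Il2ra and Il15ra overlapped between the groups in their own CPM. A lower ratio to Il2rg therefore does not show that the other gene fell. These ratios were chosen with the members' levels in view and are given with no test.

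**Figure D3:**
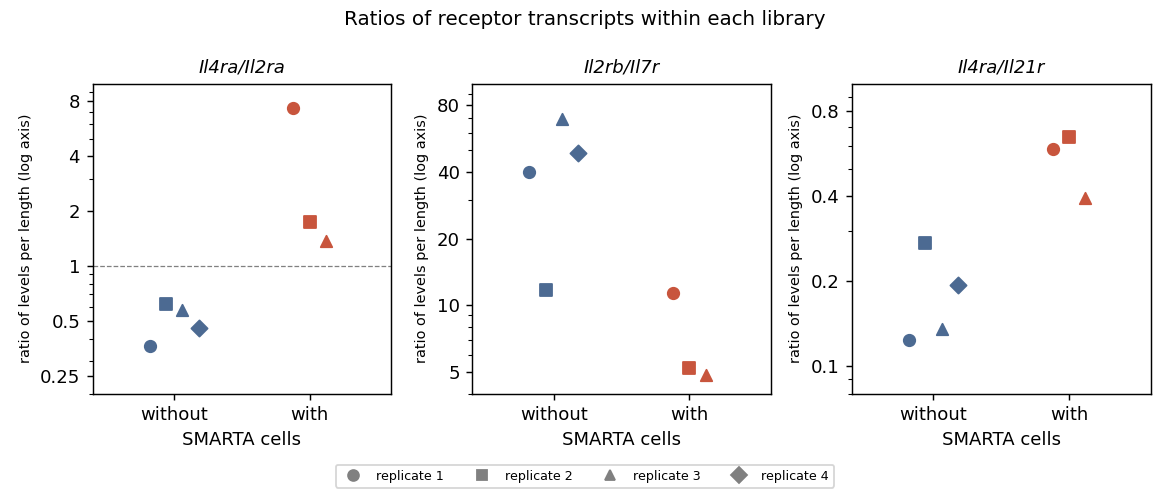
Ratios of transcript levels per length within each library (log axes), without (blue, n = 4) and with (red, n = 3) SMARTA cells; the dashed line marks equal levels. Il4ra to Il2ra crosses from 0.364 to 0.616 without to 1.37 to 7.36 with SMARTA, Il2rb to Il7r is lower with SMARTA, and Il4ra to its chromosomal neighbour Il21r is higher.

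The receptor transcripts made up different shares in the 2 groups. Of the summed level per length of the 8 genes, Il2rb took 51.3% to 60.4% without SMARTA and 38.9% to 45.3% with SMARTA, and Il2rg 25.5% to 31.4% and 32.3% to 38.2%. Il4ra took 0.971% to 1.96% without and 3.21% to 5.61% with SMARTA, with no overlap, and Il7r 0.87% to 4.39% and 4.00% to 9.17%, with overlap. Il2ra took 2.17% to 3.33% and 0.763% to 2.74%. A share also falls when other members rise, and the CPM of Il2rb and Il2ra overlapped between the groups.

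The genes whose log2 CPM followed a member most closely over the 7 libraries were listed for the 4 members with the smallest p. They were sought among 7877 genes of moderate or high expression with an established symbol. Left out beforehand were gene models with clone, accession, Gm or Rik names, pseudogenes, mitochondrially encoded genes, and immunoglobulin and T cell receptor segments. For Il4ra they were Lpar6, Thada and Tcp11l2 (Pearson r from 0.993 to 0.997), and for Il7r Smyd3, Plcg1 and Ctla2a (0.988 to 0.994). For Il2rg they were Nlrc3, Sp110 and Athl1 (0.991 to 0.993), and for Il21r Tmbim6, Fbxo6 and Sap130 (0.967 to 0.98). The libraries share the group difference and their scaling, so these values describe likeness only.

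Of the genes for the cytokines themselves, Il2 was the one whose groups did not overlap. It was counted 260, 57, 204 and 454 times in the group lacking SMARTA cells, and 18, 31 and 9 times in the other, or 5.27, 1.24, 4.15 and 9.58 CPM and 0.382, 0.747 and 0.265 CPM. Each library with SMARTA was lower, and the log2 fold change was −3.43 ± 0.76 (SE; edgeR adjusted p = 0.0502), just short of the threshold. It passed by DESeq2 (adjusted p = 3.45e-05) and in the 6 edgeR fits with another scaling, another filter or no robust estimation (edgeR adjusted p from 0.0299 to 0.0485), and not by limma-voom (adjusted p = 0.157). With 1 library left out it passed only without replicate 2 lacking SMARTA (edgeR adjusted p = 0.0306). Il15 was at 1.16 ± 0.58 and 1.13 ± 0.44 CPM (SD, n = 4 and 3), Il7 at 0 to 0.589 CPM and Il21 at 0 to 1.73 CPM. Il4 had at most 5 counts in a library, Tslp at most 4 and Il13 at most 1, and Il9 had no count in any library. Of 4 ligand genes tested 0 were called by edgeR, 1 had an unadjusted p under 0.05, and DESeq2 called 1 and limma-voom 0. Over all genes the shares by these 4 measures were 3.15%, 18.6%, 9.98% and 3.33%. The counts of the lists that follow stand beside the same shares. Of the 4 ligand genes tested, 1 was lower without overlap, beside 10.5% of all genes, and 0 higher, beside 8.73%.

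Crlf2, which pairs with the Il7r product in the receptor for thymic stromal lymphopoietin, was at 16.9 ± 9.87 and 18.8 ± 9.61 CPM (SD, n = 4 and 3). Il13ra1, which pairs with the Il4ra product in the receptor for interleukin 13, was at 0.479 ± 0.316 and 0.634 ± 0.634 CPM. Neither was called by edgeR (adjusted p = 0.916 and 0.884), neither had an unadjusted p under 0.05, and DESeq2 and limma-voom called 0 of the 2.

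Of 6 Janus kinase and STAT genes 0 were called by edgeR, 2 had an unadjusted p under 0.05 (18.6% of all genes), and DESeq2 called 1, Jak1 (9.98% of all genes), and limma-voom 0. Jak1, the kinase bound by most partner chains, was at 296, 490.1, 443 and 376 CPM without SMARTA and 573, 986 and 655 CPM with SMARTA. All libraries with SMARTA were higher, with a log2 fold change of 0.88 ± 0.25 (SE; edgeR adjusted p = 0.096). Stat6, the main transcription factor of interleukin 4 signalling, was at 525 ± 42.1 and 728 ± 168 CPM (SD, n = 4 and 3), also without overlap (log2 fold change 0.47, edgeR adjusted p = 0.222). Jak3, Stat5a, Stat5b and Stat3 overlapped between the groups. Thus 2 of the 6 genes were higher without overlap, beside 8.73% of all genes, and 0 lower, beside 10.5%.

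Of 6 feedback inhibitors 0 were called by edgeR, 2 (Socs2 and Socs3) had an unadjusted p under 0.05, beside 18.6% of all genes, DESeq2 called the same 2, beside 9.98%, and limma-voom called Socs3, beside 3.33%. Socs3, an inhibitor of cytokine receptor signalling, averaged 7.55 ± 5.52 and 32.1 ± 4.44 CPM (SD, n = 4 and 3), with no overlap (log2 fold change 2.09 ± 0.54, SE; edgeR adjusted p = 0.0746). Socs2, which is induced through STAT5, was at 3.91 ± 2.19 and 16.4 ± 7.95 CPM (2.07 ± 0.53, SE; edgeR adjusted p = 0.0762). The remaining inhibitors, Cish, Socs1, Ptpn2 and Ptpn6, overlapped between the groups. So 2 of the 6 inhibitors were higher without overlap, beside 8.73% of all genes, and 0 lower, beside 10.5%. The list's median log2 fold change was 0.56.

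Of 12 genes known to be induced through STAT5 0 were called by edgeR, 1 had an unadjusted p under 0.05, and DESeq2 called 1 and limma-voom 0. Myc, a transcription factor of growth, averaged 366 ± 84.6 and 149 ± 75.8 CPM (SD, n = 4 and 3), lower in every library with SMARTA (log2 fold change −1.30 ± 0.40, SE; edgeR adjusted p = 0.122). Osm, a cytokine gene, was at 20.5 ± 6.46 and 31.7 ± 7.36 CPM, higher in every library with SMARTA (0.63 ± 0.32, SE; edgeR adjusted p = 0.337). Of the 12 genes, 1 was higher without overlap, beside 8.73% of all genes, and 1 lower, beside 10.5%. The list's median log2 fold change was 0.24, with 9 genes positive and 3 negative.

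Of 10 transcription factors known for control of the receptor genes 0 were called by edgeR, 1 had an unadjusted p under 0.05, and DESeq2 and limma-voom called 0. Foxo1, an activator of Il7r, was at 22.0 ± 2.63 and 36.8 ± 15.7 CPM (SD, n = 4 and 3; log2 fold change 0.74, edgeR adjusted p = 0.24). Nfatc2, a factor of calcium signalling that acts on Il2ra, was at 44.3 ± 10.99 and 70.1 ± 26.2 CPM (0.66, edgeR adjusted p = 0.308). Foxo1 and Nfatc2 overlapped between the groups. Ets1 was at 552 to 617 CPM without and 618 to 879 CPM with SMARTA, and Runx3 at 18.3 to 34.9 and 36.6 to 37.7 CPM. These 2 of the 10 were higher in every library with SMARTA, beside 8.73% of all genes, and 0 were lower, beside 10.5%. Neither Ets1 nor Runx3 was called (edgeR adjusted p = 0.386 and 0.51).

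Naive and memory T cell genes, among which Il7r is usually counted, had log2 fold changes of both signs: of 7 tested, edgeR called S1pr1 and Lef1 higher, beside 1.52% of all genes, and 0 lower, beside 1.63%, and the median log2 fold change was 1.20. S1pr1, the receptor that guides exit from tissue, had a log2 fold change of 2.49 ± 0.29 (SE; edgeR adjusted p = 0.0119) and Lef1, a transcription factor of naive and memory cells, of 1.34 ± 0.22 (SE; edgeR adjusted p = 0.0239). With 1 library left out S1pr1 was called in 6 of 7 fits and Lef1 in 2 of 7. Without overlap 3 of the 7 genes were higher, beside 8.73% of all genes, and 2 lower, beside 10.5%. Tcf7 was also higher in each library with SMARTA, while Ccr7 and Bach2 were lower in each. None of these 3 was called by edgeR or limma-voom, though each had an unadjusted edgeR p under 0.05, and DESeq2 called all 3 (5 of the 7 in all).

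**Figure D4:**
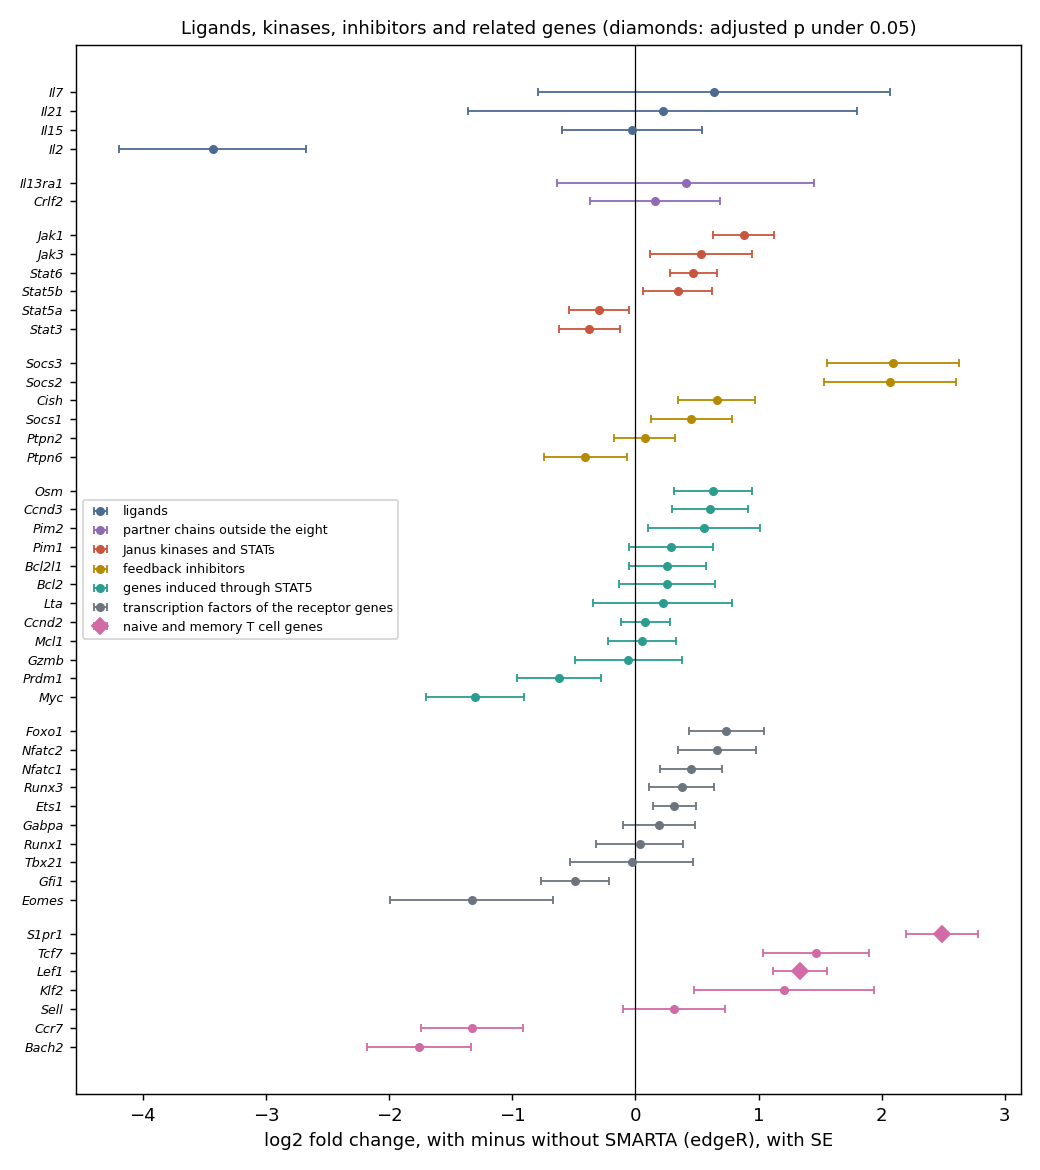
Log2 fold change, with minus without SMARTA, with its standard error, of the tested ligand, partner chain, kinase, inhibitor, target, regulator and memory genes, coloured by list; diamonds are genes with an edgeR adjusted p under 0.05. S1pr1 (2.49) and Lef1 (1.34) are the called genes, Il2 lies lowest at −3.43, and Socs3 and Socs2 at 2.09 and 2.07 were not called by edgeR.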

How the data were processed

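Counts of read pairs on GENCODE M17 exons, summed by gene name, were made by the authors with featureCounts 1.6.2 without strand, per the file headers; STAR 2.6.0c and the build GRCm38.p6 are from the submitters' processing notes. By the tool's defaults, reads matching several places or genes are left out. The deposited counts are not normalized.

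Samples were grouped by title. With R 4.3.3 and edgeR 4.0.16, genes passing filterByExpr (minimum count 10, minimum total 15) were TMM-scaled and compared in a robust quasi-likelihood fit over all 7 libraries with no covariate, two-sided. All 8 members passed the filter. Il9r passed through few libraries. A positive log2 fold change means higher with SMARTA, and its standard error is its size over the root of F. CPM of single genes are TMM-scaled; marker sums and marker genes use library totals; log2 CPM for likeness used a prior count of 2. Levels per length used the exonic length in the files. The fit was checked on simulated counts, where many changed genes were missed at this spread.

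The members and lists were chosen with earlier results of these data known. Named are all members, the ligands, and from each list the called genes (at most 4) or the 2 with the smallest p; genes named beyond these complete a count. DESeq2 1.42.0, limma-voom (limma 3.58.1), other scalings and filters, a fit without robust estimation, a replicate block by title number or, added after the data were seen, by file name number, and single libraries left out were alternatives. No 2 libraries of a group agreed within sampling noise (at least 93.5 in chi-square over its degrees of freedom).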

Additional observations from a re-analysis of the deposited data

How the results depend on the processing

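Il4ra kept its direction in all 17 alternatives and its call in all but the 2 with a block, and Il7r and Il2rg kept their direction in all 17. The number of members called was 2 with a filter of 1 CPM in 3 libraries and with limma-voom, 3 with DESeq2, and 1 to 3 with 1 library left out. All genes called numbered 1764 with DESeq2 and 17 to 907 with 1 library left out (17 without replicate 4 lacking SMARTA, 907 without replicate 1 with SMARTA). With library totals 29.1% of calls were higher, against 48.2%, and the median of all genes moved to −0.16; no member changed sign. With the replicate number as a block (replicate block), edgeR called 0 genes and 0 members, with 1631 genes and 3 members at an unadjusted p under 0.05, and Il4ra was at 2.03 on the log2 scale (adjusted p = 0.326). These are the numbers in the titles; the file names number the libraries with SMARTA 2, 3 and 4. A block by the file name numbers (replicate block by file name number), added after the data were seen, gave 0 genes and 0 members, with 1868 genes and 3 members at an unadjusted p under 0.05, and Il4ra at 1.84 (adjusted p = 0.0949). Same-numbered libraries did not all deviate together by the titles (r = −0.20, 0.13 and −0.50) or by the file names (r = −0.080, −0.084 and 0.046), and nothing in the labels says that a number marks a shared animal or day, so neither numbering was taken to pair the libraries. Signs turned for genes that were not called: Il13ra1 was −0.12 with limma-voom and −0.39 with the title block, Crlf2 was −0.16 with the file name block, and Il15 and Il21 were 0.067 and −0.88 with limma-voom. With 1 library left out the ranges were −0.60 to 0.19 for Il2ra, −0.35 to 0.067 for Il2rb, −0.00128 to 0.27 for Il15ra, −0.22 to 0.61 for Crlf2, −0.64 to 0.91 for Il13ra1, −0.35 to 0.37 for Il15 and −2.06 to 0.78 for Il21. Il9r, Il7 and Il21 had few counts and a wide spread between libraries (standard errors of 1.58, 1.43 and 1.58 on the log2 scale), and which of these limited detection was not separated. In counts simulated at the spread of these libraries, 200 of 15896 genes were changed. There 42% of 4-fold and 3% of 2-fold changes were called, with 3 false calls. These rates depend on the share of genes changed, which is not known for the real libraries.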
